A study of Mus musculus with 6 samples.

Results

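Zdhhc14 and 6 related palmitoyltransferase genes, Zdhhc5, Zdhhc8, Zdhhc9, Zdhhc17, Zdhhc18 and Zdhhc19, were followed in islets from mice with short telomeres. They are 7 of the 20204 genes that have a probe of their own on the array, and 12 of its 34502 probes, each a transcript cluster, are theirs. Zdhhc14 was chosen by its genotype difference in these samples, which passed the threshold that the study used (more than 1.5-fold and an unadjusted p under 0.05), and its relatives were added with their values known. The genotype differences of these 7 genes are therefore given as a description, without a test. Where a gene had several probes of its own, the probe with the highest mean over the 6 arrays stood for it, and the other probes are given too.

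The series set islets of 3 mTR-/-G4 mice, which lack the RNA component of telomerase and were bred until their telomeres were short, against islets of 3 wild-type mice. All 6 animals were males of the C57BL/6 strain, 15 months of age, and their islets were purified with collagenase. RNA of each sample was hybridized to 1 Affymetrix mouse exon array, and the samples, named a, b and c in each genotype, were taken as 1 mouse each. The deletion was carried by every cell of the animal. No mice without telomerase but with long telomeres were arrayed, so absence of telomerase and shortness of telomeres cannot be told apart in this pair of groups. Deletion of the telomerase RNA gene could not be checked on the arrays, because its probe is shared with another gene in the annotation.

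Palmitoyltransferases of this family carry a cysteine-rich domain with an aspartate-histidine-histidine-cysteine motif, from which they are called DHHC enzymes. They attach palmitate, a saturated fatty acid, to cysteines of other proteins through a thioester bond, which anchors these proteins in membranes. The bond is reversible, because thioesterases remove the palmitate again. In insulin-secreting and nerve cells, ion channel subunits and proteins of vesicle fusion such as SNAP-25 are among the modified proteins.

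The mean log2 signal of 16 measured islet endocrine markers was 11.41, 11.29 and 11.41 in mTR-/-G4 samples, against 11.46, 11.61 and 11.51 in wild-type samples, a difference of -0.16 without overlap (exact permutation p = 0.1). None of the 16 passed the threshold, and all were brighter than the median probe. The 20 measured markers of acinar cells, the exocrine cells around islets, averaged 9.07 ± 0.483 in mTR-/-G4 and 7.62 ± 0.458 in wild-type samples (SD, n = 3 each), a difference of 1.45 (exact permutation test, two-sided, p = 0.1, below which groups of 3 and 3 cannot go). Of these 20 markers 17 rose, Bhlha15 fell, and 2 of the 20 were dimmer than the median probe. Of 10 endothelial markers Kdr, Flt1 and Tek fell, and the list averaged 7.32 ± 0.169 in mTR-/-G4 and 7.78 ± 0.311 in wild-type samples (SD, n = 3 each, exact permutation p = 0.2). Of the 7 measured duct markers Muc1 alone passed the threshold, higher by 0.98 with overlap. The mean of the duct list differed by 0.26 (exact permutation p = 0.3). Of 10 markers of stellate cells and fibroblasts Rgs5 alone passed, lower by 0.84, and the mean of that list differed by -0.03. Signals spread less widely on the mTR-/-G4 arrays, with interquartile ranges of 2.56, 2.05 and 2.42, against 2.66, 2.79 and 2.63 on the wild-type arrays, with mTR-/-G4 b the narrowest. The part of cell composition, of this spread and of sample b in the differences below was not tested, and some values adjusted for them or without them are given beside the results. In such whole-islet samples, fewer cells of a type and less RNA per cell cannot be told apart.

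Over all genes, 331 were lower and 391 higher in mTR-/-G4 islets at the study's threshold, which is 1.64% and 1.94% of the genes. With each array centred on its own median, 573 were lower and 221 higher. No gene reached an adjusted p under 0.05 by its brightest probe (limma with Benjamini-Hochberg adjustment), although 4471 had an unadjusted p under 0.05. Every mTR-/-G4 sample lay below every wild-type sample in 12.2% of genes and above in 25% of genes. These shares depended on brightness, being 21.3% below and 10.1% above among the 11035 genes brighter than the median probe, and 1.2% below and 42.9% above among the 9169 dimmer ones.

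Of the 7 palmitoyltransferase genes, 1 was past the threshold in the lower direction and none in the higher direction, where 1.64% and 1.94% of all genes were. The mTR-/-G4 samples lay wholly below the wild-type samples for Zdhhc14, Zdhhc17 and Zdhhc18, wholly above them for Zdhhc19, and overlapped them for Zdhhc5, Zdhhc8 and Zdhhc9, beside 12.2% of all genes below and 25% above. Since the genes were chosen with this contrast known, nothing is read from these counts. The difference was negative for 6 of the 7 genes, from which nothing is read either. Among these, the differences of Zdhhc9 and Zdhhc5 were -0.0006 and -0.08, and both were positive after quantile normalization. The median difference was -0.24 on the log2 scale, against 0.10 over all genes and -0.06 over the genes brighter than the median probe. Of their 12 probes, 2 were past the threshold, both lower and both of Zdhhc14, where 3.61% of all probes were lower and 2.62% higher. All of these genes but Zdhhc19 were brighter than the median probe.

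**Figure D1:**
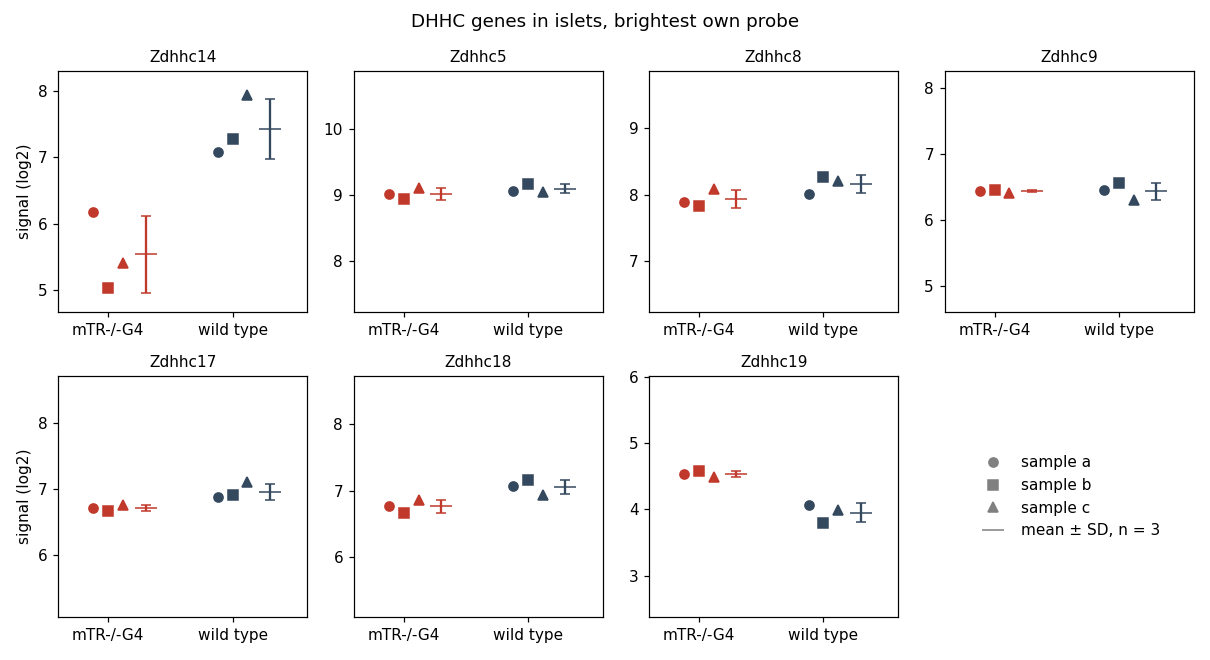
Log2 signal of the brightest own probe of the 7 palmitoyltransferase genes in each of the 3 mTR-/-G4 and 3 wild-type islet samples, with the mean and SD of each genotype. All panels span the same number of log2 units, and levels of different genes are not comparable. The genotypes are far apart for Zdhhc14, at means of 5.53 and 7.43, and differ by at most 0.58 for the remaining 6 genes.

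Zdhhc14 encodes an enzyme close in sequence to those of Zdhhc18 and Zdhhc9, and in rat neurons it modifies the scaffold protein PSD-93 and potassium channels of the Kv1 type. The log2 signal of its brightest probe, 6848486, was 6.17, 5.02 and 5.40 in mTR-/-G4 samples, against 7.08, 7.28 and 7.95 in wild-type samples. The highest mTR-/-G4 sample was thus below the lowest wild-type sample, by more than the SD of either genotype. The means were 5.53 ± 0.586 in mTR-/-G4 and 7.43 ± 0.454 in wild-type islets (SD, n = 3 each), a difference of -1.90 with an SE of 0.33, or 3.74-fold lower. Counted from the most lowered gene, it was number 11 of 20204. The samples also differed within each genotype, with mTR-/-G4 a well above b and c, and wild type c well above a and b.

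The other probes of Zdhhc14 did not show a difference of that size. Probe 6848479 was at 5.89, 5.75 and 5.96 in mTR-/-G4 samples and at 6.40, 6.36 and 6.37 in wild-type samples, a difference of -0.51 with an SE of 0.10. The wild-type values were almost the same, and the fold of 1.42 left this probe just outside the threshold. Probe 6848481 was at 5.14, 4.72 and 4.70 in mTR-/-G4 samples and at 5.28, 5.78 and 5.43 in wild-type samples, a difference of -0.64 with an SE of 0.18. Its fold of 1.56 placed it just inside the threshold, and 3 of the 6 fits that left out 1 sample did not call it, the smallest difference being -0.50. Probe 6848494 overlapped between the genotypes at 4.39, 4.45 and 4.63 in mTR-/-G4 samples and 4.32, 4.52 and 4.37 in wild-type samples. So 3 of the 4 probes were lower without overlap, with differences of -0.51 to -1.90. Of all genes 12.2% lay wholly below, and 21.3% of the bright ones. The 4 probes read 1 gene in the same 6 samples and are not replicates of one another. Averaging all 4 gave a difference of -0.74 with an SE of 0.13. Which exons or transcripts each probe covers was not examined here.

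**Figure D2:**
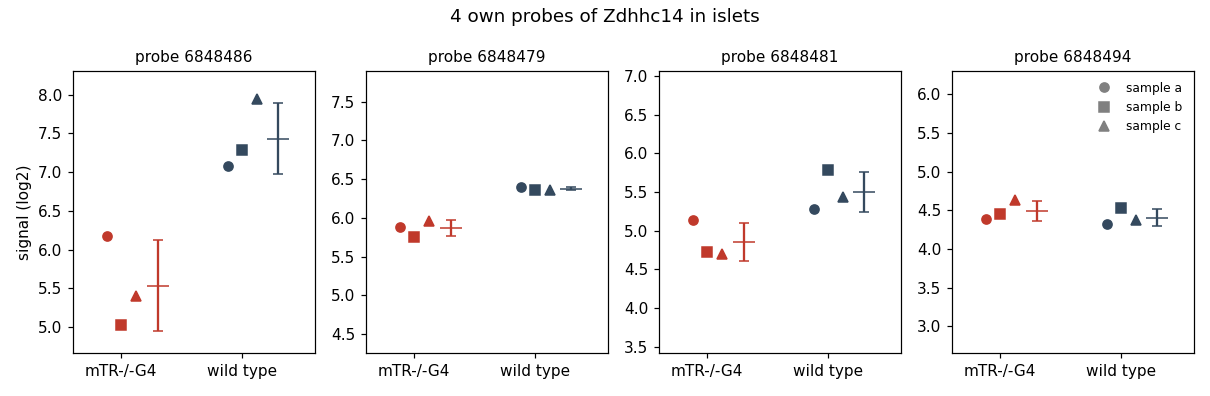
Log2 signal of the 4 own probes of Zdhhc14 in the 3 mTR-/-G4 and 3 wild-type samples, with the mean and SD of each genotype, on vertical axes of equal span. The genotypes do not overlap for probes 6848486, 6848479 and 6848481, whose differences are -1.90, -0.51 and -0.64, and they overlap for probe 6848494.

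Probe 6848486 stayed lower in mTR-/-G4 islets with each sample left out and with other scalings. As its samples did not overlap between the genotypes, leaving out 1 sample could change the size of the difference but not its direction. Leaving out each sample in turn gave differences from -2.22, without mTR-/-G4 a, to -1.65, without wild type c, and without mTR-/-G4 b it was also -1.65. Normalizing the arrays again by quantiles gave -1.91, and centring them kept it past the threshold. With the mean acinar signal of each sample as a covariate the difference was -2.12, with an SE of 0.75. The acinar means did not overlap between the genotypes. Fits with this covariate are therefore less precise, and they cannot tell acinar content and genotype apart.

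Zdhhc18 encodes a Golgi enzyme that acts on Ras proteins, and Zdhhc17 one with ankyrin repeats that binds huntingtin and acts on SNAP-25. Zdhhc18 was at 6.77, 6.66 and 6.86 in mTR-/-G4 samples and at 7.07, 7.16 and 6.94 in wild-type samples, a difference of -0.29 with an SE of 0.11. The gap between the closest samples was under 0.1 log2 units. Zdhhc17 was at 6.71, 6.66 and 6.75 in mTR-/-G4 samples and at 6.87, 6.91 and 7.10 in wild-type samples, a difference of -0.25 with an SE of 0.10. A second probe of Zdhhc17 overlapped between the genotypes, with a difference of 0.15 and an SE of 0.21. Scaling moved both genes. The difference of Zdhhc18 was -0.17 after quantile normalization and -0.39 with centred arrays, and that of Zdhhc17 was -0.14 and -0.35. With the acinar covariate they were -0.28 for Zdhhc18 (SE 0.26) and -0.11 for Zdhhc17 (SE 0.24). The mean of both probes of Zdhhc17 differed by -0.05.

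Zdhhc19 is a mainly testicular family member that acts on R-Ras. It was at 4.54, 4.58 and 4.49 in mTR-/-G4 samples and at 4.07, 3.80 and 3.99 in wild-type samples, means of 4.54 ± 0.047 and 3.95 ± 0.14 (SD, n = 3 each). The 3 mTR-/-G4 samples lay close together above all wild-type samples. The difference was 0.58 with an SE of 0.11, and the fold lay just below the 1.5 of the threshold. Of the 6 fits that left out 1 sample 3 placed it past the threshold, with a range from 0.51 to 0.64. This probe was dimmer than most, with 23.4% of all probe means at or below its own, and dim probes as a whole were higher in mTR-/-G4 islets, with a median difference of 0.21. After quantile normalization the difference was 0.36, with centred arrays 0.49 and with the acinar covariate 0.41. The second probe of Zdhhc19 was among the dimmest on the array and differed by 0.04 with an SE of 0.09, and the mean of both by 0.31.

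Zdhhc5 and Zdhhc8 encode closely related enzymes of the cell surface and internal membranes, and Zdhhc9 one that works with the partner protein Golga7 on Ras and is mutated in an X-linked intellectual disability in humans. Zdhhc8 was at 7.88, 7.82 and 8.08 in mTR-/-G4 samples and at 8.01, 8.27 and 8.21 in wild-type samples, a difference of -0.24 with an SE of 0.12. With the acinar signal as a covariate the difference was 0.09 with an SE of 0.25. Sample c of the mTR-/-G4 islets lay above sample a of the wild-type islets. Zdhhc5 was at 9.01, 8.94 and 9.12 in mTR-/-G4 samples and at 9.07, 9.18 and 9.05 in wild-type samples, a difference of -0.08 with an SE of 0.10, which turned to 0.04 after quantile normalization. Zdhhc9 was at 6.44, 6.45 and 6.41 in mTR-/-G4 samples and at 6.44, 6.56 and 6.30 in wild-type samples. Its means were both 6.43, and its sign changed with the scaling, from -0.10 with centred arrays to 0.10 after quantile normalization.

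The start regions of these genes differed in base composition, which the choice of the genes did not use. RefSeq windows of 300 bases around the start of the gene in build GRCm38.p6 were matched by symbol for 6 of the 7 genes, all but Zdhhc14. The windows of the non-overlapping relatives Zdhhc17, Zdhhc18 and Zdhhc19 are shown, with that of Zdhhc22, the family member outside the group that fell. They are written 5′ to 3′ on the strand of the gene, and capitals mark CG dinucleotides, the letters C and G in succession, which read the same on both strands. The first of the starts listed for Zdhhc17 and Zdhhc22 is printed. They lie at chr10:111010017-111010316 (minus strand), chr4:133633380-133633679 (minus strand), chr16:32496031-32496330 (plus strand) and chr12:86990781-86991080 (minus strand), in the order printed.
Zdhhc17: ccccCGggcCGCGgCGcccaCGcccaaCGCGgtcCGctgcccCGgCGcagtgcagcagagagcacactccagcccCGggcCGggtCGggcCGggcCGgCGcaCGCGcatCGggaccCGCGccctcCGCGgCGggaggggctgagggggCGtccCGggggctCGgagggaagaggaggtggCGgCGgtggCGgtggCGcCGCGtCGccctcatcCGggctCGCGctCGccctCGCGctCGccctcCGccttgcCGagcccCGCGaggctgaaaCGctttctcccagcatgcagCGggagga
Zdhhc18: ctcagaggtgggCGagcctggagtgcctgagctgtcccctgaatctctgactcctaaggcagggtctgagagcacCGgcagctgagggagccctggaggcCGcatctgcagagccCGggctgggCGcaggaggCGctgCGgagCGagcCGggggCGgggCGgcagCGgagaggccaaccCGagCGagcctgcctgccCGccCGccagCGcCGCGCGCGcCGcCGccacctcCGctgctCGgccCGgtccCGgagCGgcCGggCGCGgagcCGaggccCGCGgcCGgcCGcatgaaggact
Zdhhc19: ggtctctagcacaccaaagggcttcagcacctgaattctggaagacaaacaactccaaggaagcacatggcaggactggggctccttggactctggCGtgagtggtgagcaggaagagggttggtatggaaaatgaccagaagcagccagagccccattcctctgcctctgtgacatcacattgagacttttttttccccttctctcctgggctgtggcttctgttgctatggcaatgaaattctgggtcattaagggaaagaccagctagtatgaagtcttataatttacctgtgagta
Zdhhc22: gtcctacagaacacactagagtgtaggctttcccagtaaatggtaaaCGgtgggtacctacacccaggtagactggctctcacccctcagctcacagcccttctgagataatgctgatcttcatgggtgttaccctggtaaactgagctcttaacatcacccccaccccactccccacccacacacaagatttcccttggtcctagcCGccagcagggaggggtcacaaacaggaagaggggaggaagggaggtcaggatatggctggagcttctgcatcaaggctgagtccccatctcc

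The windows of Zdhhc17 and Zdhhc18 held 47 and 36 CG dinucleotides, where the median of 32851 such windows was 7. As many or more were found in 1.44% and 6.23% of all windows. The window of Zdhhc19 held 1, and 14.1% of all windows held at most that many. Zdhhc5, Zdhhc8 and Zdhhc9, whose genotypes overlapped, had 52, 33 and 20. The windows with many CG dinucleotides thus included genes whose samples separated and genes whose samples did not. For Zdhhc22 the printed window held 2 and that of the other listed start 10.

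Outside the group, 16 of 17 other DHHC genes had a probe of their own. Of these 1 fell, 0 rose and 15 were not called at the threshold, so 6.25% were lower, against 1.64% of all genes and 2.85% of the genes brighter than the median probe. An unadjusted p under 0.05 was reached by 4 of the 16, and by 22.1% of all genes. Their median difference was -0.15, over a range from -1.20 to 0.34, against -0.06 for the bright genes. The mTR-/-G4 samples lay wholly below the wild-type samples for 7, above for 1 and overlapped for 8. As 15 of the 16 were brighter than the median probe, the 43.8% below stand beside the 21.3% of bright genes rather than the 12.2% of all genes. After quantile normalization 5 of the 16 were wholly below, where 15.3% of the bright genes were, and with centred arrays 7 were, where 29.5% of the bright genes were.

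The family member that fell was Zdhhc22, which in cultured human cells acts on the calcium-activated potassium channel Kcnma1 together with Zdhhc23. It was at 5.78, 6.03 and 5.97 in mTR-/-G4 samples, against 7.04, 7.002 and 7.34 in wild-type samples. The samples of each genotype lay close together and far from those of the other genotype. The difference was -1.20 with an SE of 0.13 (limma, adjusted p = 0.0929), and the adjusted p ranged from 0.0042 with sample weights to 0.705 with the acinar covariate over the 16 alternatives. It stayed past the threshold in all 16, between -1.30 with centred arrays and -0.90 with the acinar covariate. Without mTR-/-G4 b it was -1.25.

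Of the DHHC genes outside the group, Zdhhc22 alone passed the threshold. Zdhhc2, which acts on the scaffold protein PSD-95, was at 8.52, 8.10 and 8.57 in mTR-/-G4 samples and at 8.73, 8.98 and 9.07 in wild-type samples. Its difference of -0.53, with an SE of 0.16, did not pass (limma, adjusted p = 0.163), and it passed in 4 of the 16 alternatives. With the acinar covariate it was -0.29. Zdhhc23, the partner enzyme of Zdhhc22 on the potassium channel, overlapped between genotypes with a difference of -0.40 and an SE of 0.24 (limma, adjusted p = 0.308). Zdhhc20 differed by -0.35 with an SE of 0.15, and all its mTR-/-G4 samples lay below the wild-type samples (limma, adjusted p = 0.222). The highest difference among the 16 was that of Zdhhc21, at 0.34 with an SE of 0.19, and its second probe differed by -0.21.

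**Figure D3:**
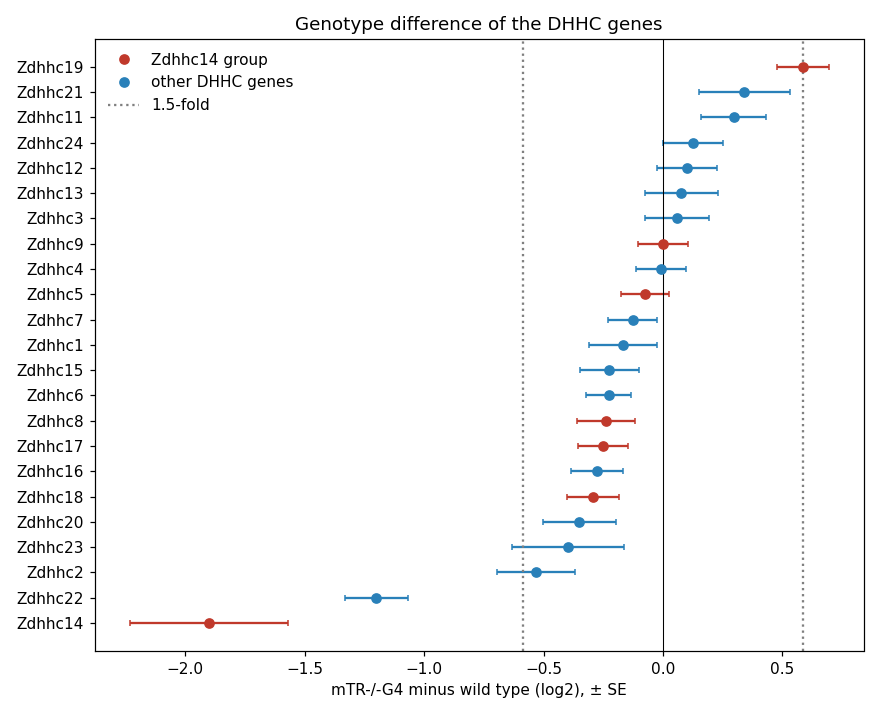
Difference in log2 signal, mTR-/-G4 minus wild type, of the brightest own probe of each DHHC gene, with its SE from limma (3 samples per genotype). The dotted lines mark 1.5-fold. Zdhhc14 at -1.90 and Zdhhc22 at -1.20 lie beyond the lower line, and Zdhhc19 at 0.58 lies at the upper one.

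**Figure D4:**
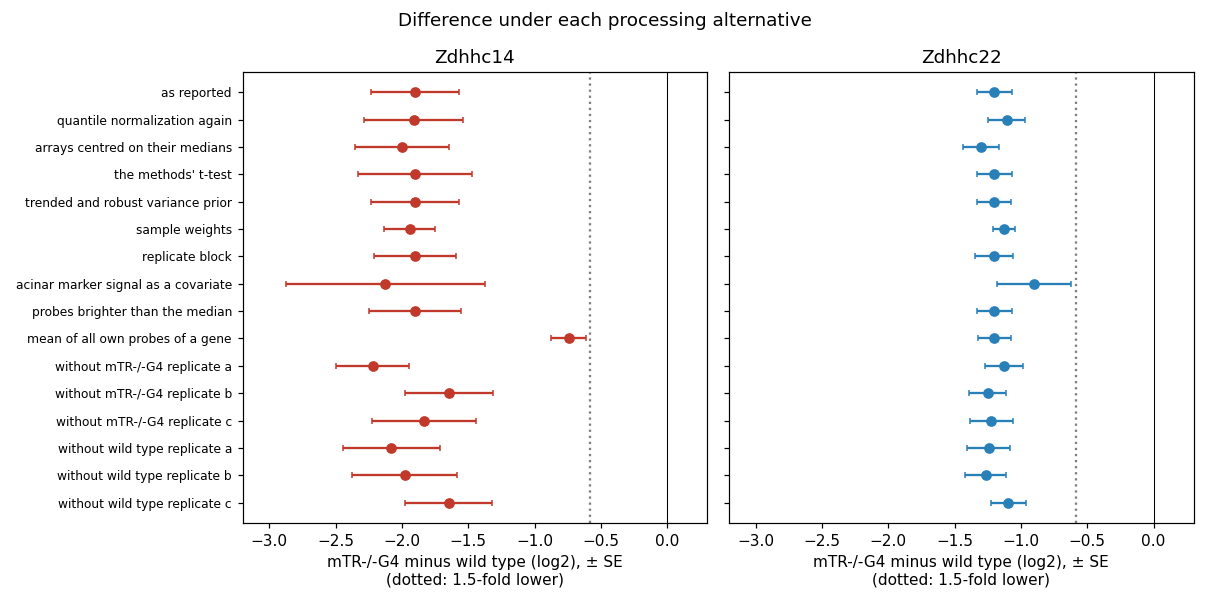
Difference in log2 signal, mTR-/-G4 minus wild type, of Zdhhc14 (left) and Zdhhc22 (right) as reported and under each processing alternative that gives a difference, with its SE. All values lie beyond the dotted line of 1.5-fold lower, and that of Zdhhc14 is smallest, at -0.74, where all its probes are averaged.

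Of the listed genes that act with or against these enzymes, none passed the threshold by its brightest probe. Over all genes 1.64% were lower and 1.94% higher, and 22.1% had an unadjusted p under 0.05, so nothing is read from counts in such short lists. The accessory subunits Golga7, Golga7b and Selenok, of which the last works with Zdhhc6, differed by 0.05, -0.01 and 0.10, and 0 of 3 passed, none at an unadjusted p under 0.05. Of 9 genes for enzymes that remove palmitate or are related to these, 0 passed by the brightest probe, 1 had an unadjusted p under 0.05, and the median difference was 0.00. Lypla2, a cytosolic thioesterase, was at 7.51, 7.44 and 7.51 in mTR-/-G4 samples and at 7.20, 7.30 and 7.23 in wild-type samples, higher without overlap but by only 0.24 with an SE of 0.09 (limma, adjusted p = 0.200). The mTR-/-G4 samples lay wholly above for 3 of these 9 genes, and for 25% of all genes and 10.1% of the bright ones. Lyplal1 differed by -0.24 and Abhd17c by 0.19. For Ppt1, the lysosomal thioesterase, the brightest probe differed by -0.09 and a second probe passed the threshold as lower, at -0.70 with an SE of 0.27 (limma, adjusted p = 0.200).

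Among 26 genes whose proteins are known or reported to be modified by DHHC enzymes, 23 were measured. Of these 1 fell, 0 rose and 22 were not called, against 1.64% of all genes lower. An unadjusted p under 0.05 was reached by 9 of the 23, and by 22.1% of all genes. Their median difference was -0.08. Cacnb2, a subunit of voltage-gated calcium channels, was the gene that fell, at 7.29, 6.83 and 7.12 in mTR-/-G4 samples and 7.63, 7.87 and 8.21 in wild-type samples. Its difference was -0.82 with an SE of 0.18 (limma, adjusted p = 0.116). With the acinar signal as a covariate it was -0.65, still beyond 1.5-fold. Its SE was then 0.42, and it no longer passed (limma, adjusted p = 0.705). Ctnnd2, which encodes delta-catenin, and Mapk10, which encodes the kinase JNK3, differed by -0.57 and -0.56 without overlap, just inside 1.5-fold (limma, adjusted p = 0.114 and 0.0995). Of the 16 alternatives 3 called Ctnnd2 lower and 5 called Mapk10 lower. With the acinar covariate Ctnnd2 was at -0.29 and Mapk10 at -0.69. A second probe of Mapk10 overlapped between the genotypes with a difference of 0.11, and the mean of both probes differed by -0.23. Kcnma1, the potassium channel named above, differed by -0.32 with an SE of 0.11 (limma, adjusted p = 0.178), and Snap25 by -0.30 with overlap. Dlg2, which encodes PSD-93, differed by -0.05 with an SE of 0.10. Kcna1, a potassium channel of the Kv1 type, differed by 0.52 with an SE of 0.48, as wild type c was at 4.23 and the remaining samples between 5.72 and 6.28.

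Supply of fatty acids and other lipid attachments were given by 2 further lists. Over all genes 1.64% were lower, 1.94% higher and 22.1% at an unadjusted p under 0.05, so nothing is read from the counts in these short lists. Of 4 measured genes of 6 for fatty acid synthesis and activation, 0 passed and none had an unadjusted p under 0.05. Their median difference was -0.14, and the largest in size was that of Fasn, fatty acid synthase, at -0.24. Of 8 genes for myristoylation, prenylation and membrane-bound acyltransferases, 0 passed, 2 had an unadjusted p under 0.05, and the median difference was -0.15. Mboat4, which attaches octanoate to ghrelin, was at 4.31, 4.88 and 4.54 in mTR-/-G4 samples and at 4.21, 4.04 and 4.22 in wild-type samples. Its difference of 0.42, with an SE of 0.16, lay inside 1.5-fold (limma, adjusted p = 0.197). The probe of Mboat4 was dim, with 28.7% of all probe means at or below its own, and dim probes had a median difference of 0.21. The difference of Mboat4 was 0.20 after quantile normalization and 0.60 with the acinar covariate (SE 0.36), and it was not called in either. Pggt1b, a prenyltransferase subunit, differed by -0.30.

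Genes near Zdhhc14 on its chromosome were read as neighbours in gene order, the nearest 4 on each side with a probe of their own. Counted in places of that order, they stood at -18, -8, -5 and -3 before Zdhhc14 and at 3, 5, 9 and 13 after it. No probe of their own was found for the genes in between, so the genes directly beside Zdhhc14 were not measured. None of the 8 passed the threshold, in the fit as reported or in any of the 16 alternatives, which reuse the same samples. Over all genes 1.64% were lower and 1.94% higher, so nothing is read from this count. An unadjusted p under 0.05 was reached by 2 of the 8, and by 22.1% of all genes. The mTR-/-G4 samples lay wholly below for Arid1b, Ldhal6b, Snx9 and Synj2 and wholly above for 3300005D01Rik. Of all genes 12.2% were below and 25% above. Arid1b, Snx9 and Synj2 were brighter than the median probe, and 21.3% of such genes lay wholly below. Ldhal6b and 3300005D01Rik were dimmer, and of such genes 1.2% lay wholly below and 42.9% above. Arid1b, a subunit of a chromatin remodelling complex, was at 6.79, 6.62 and 6.80 in mTR-/-G4 samples and at 6.98, 7.20 and 7.23 in wild-type samples. Its difference was -0.40 with an SE of 0.11 (limma, adjusted p = 0.149), which was -0.22 with the acinar covariate and -0.14 for the mean of its probes. Ldhal6b differed by -0.33 (limma, adjusted p = 0.182). The others before Zdhhc14, 4930548J01Rik and Tmem242, differed by 0.07 and -0.06. After it, 3300005D01Rik differed by 0.21, Snx9 by -0.15, Synj2 by -0.18 and Serac1 by -0.14.

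Some genes followed the 6 values of Zdhhc14 closely. Likeness was measured as the Pearson r to probe 6848486 over the 6 samples, among 728 genes with an SD of at least 0.5, and it is a description, as the samples of each genotype share their group. Prkd1, which encodes protein kinase D1, had an r of 0.996. It was at 6.65, 6.15 and 6.34 in mTR-/-G4 samples and at 7.18, 7.33 and 7.54 in wild-type samples. The order of its samples was that of Zdhhc14, with mTR-/-G4 b lowest and wild type c highest. The next were 4930470H14Rik at 0.996, A330076H08Rik and Auts2 at 0.993 each, and Gria2, a glutamate receptor subunit, at 0.991. After the mean of each genotype was taken away, the r of these 5 genes lay between 0.961 and 0.991. As they were picked from the 728 by their r over the same 6 values, a high r within the genotypes follows largely from that choice. It is no separate support for a shared course. At the other end, Ppbp, a platelet chemokine, had an r of -0.996. It was at 5.96, 6.99 and 6.60 in mTR-/-G4 samples and at 5.51, 5.25 and 4.79 in wild-type samples. It was highest in mTR-/-G4 b and lowest in wild type c, the opposite of Zdhhc14. Specc1 had an r of -0.976 and Aqp3, a channel for water and glycerol, one of -0.968.

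**Figure D5:**
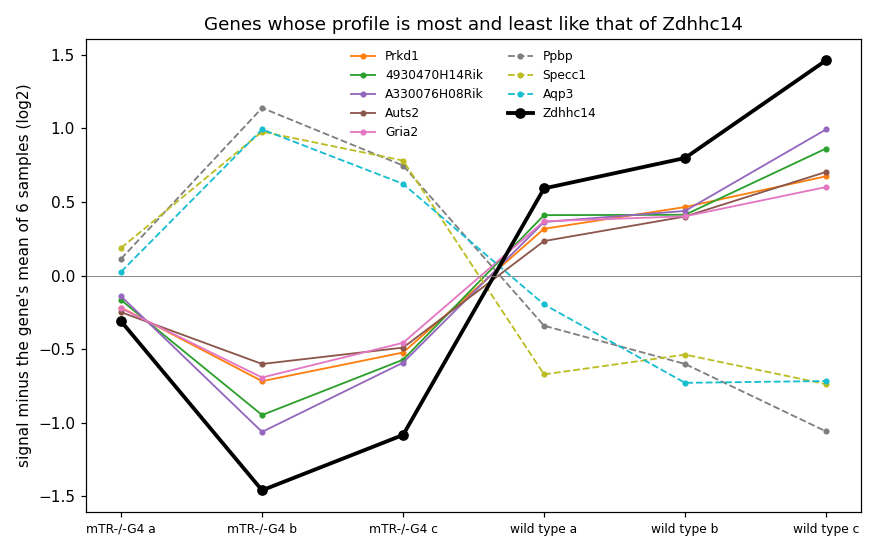
Log2 signal of Zdhhc14 (black), of the 5 genes with the highest Pearson r to it (solid) and of the 3 with the lowest (dashed), each minus its own mean over the 6 samples. Lines only join the points of a gene. The solid lines are lowest in mTR-/-G4 b and highest in wild type c, as Zdhhc14 is.

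Among the other 6 palmitoyltransferases, Zdhhc17 had an r of 0.92 over the 6 samples, and 0.66 after the mean of each genotype was taken away. Both values were the highest among the 6. For Zdhhc18 these values were 0.75 and -0.15, and for Zdhhc19 they were -0.89 and -0.09. Those of Zdhhc5, Zdhhc8 and Zdhhc9 within the genotypes were 0.01, 0.23 and -0.48. The acinar marker mean, beside the same probe of Zdhhc14, had an r of -0.78 over the 6 samples and of 0.14 within the genotypes, and the interquartile range of the array one of 0.83 and 0.59.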

How the data were processed

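Log2 signals of purified islets from 3 mTR-/-G4 and 3 wild-type mice were analysed. The authors normalized the arrays together by Robust Multichip Analysis in Partek (version not given in the sources used here) and deposited log2 values of 34502 probes. The submitters' notes name mm9, and no array coordinate was used. Of the probes, 25362 are annotated with 1 gene symbol, 2238 with several and 6902 with none listed, and only the first were named.

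An unpaired limma 3.58.1 model (lmFit, eBayes) in R 4.3.3 gave the genotype differences with no filter on dim probes and with Benjamini-Hochberg adjustment over all probes. On simulated data the fit recovered 99 of 100 planted changes of 1 log2 unit, and 99 of 100 of 2 log2 units. This checks the working of the fit and not the results reported here. The limma p-values weigh a difference only against the spread between these samples, which is moderated over all probes. The precision is limited by 3 arrays per genotype. Named were the 7 genes with all their probes, list genes past the threshold and up to 3 of each list with the largest difference, 4 neighbours on each side, and the 5 most and 3 least alike genes. Some list genes with known links to a named enzyme were added after their values were seen. The 7 genes and the lists were chosen with earlier results of these data known. Promoter windows and gene order came from RefSeq (GRCm38.p6).

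Alternatives were quantile normalization, array centring, the methods' t-test, a trended and robust prior, sample weights, a replicate block, the acinar signal as a covariate, bright probes only, a 2-fold threshold, the mean of a gene's probes and each sample left out. Histology, RT-PCR and physiology were left out, as they are not array data.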

Additional observations from a re-analysis of the deposited data

How the results depend on the processing

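The difference of Zdhhc14 kept its direction and its side of the threshold in all 16 alternatives. The gene was chosen by this difference, and leaving out 1 sample could not change its direction, as the genotypes did not overlap. The difference moved to -0.74 where all its probes were averaged, which follows from the smaller differences of the other 3 probes. The counts depended more on the settings. Genes past the threshold numbered 573 lower and 221 higher with centred arrays, 539 lower with the acinar covariate, 227 higher with the methods' t-test, 180 higher among the brighter probes, and 70 lower and 78 higher at 2-fold. Leaving out each sample in turn gave 200 to 538 lower genes and 266 to 799 higher genes, lowest without mTR-/-G4 b and highest without mTR-/-G4 a. Higher probes numbered 523 with centred arrays, 507 with the methods' t-test, 362 among the brighter probes and 145 at 2-fold, lower probes 478 at 2-fold, and with each sample left out 577 to 1833 were higher and 908 to 1649 lower. Of the other DHHC genes 2 were lower with centred arrays, which added Zdhhc2, and 1 to 3 with each sample left out (3 without mTR-/-G4 c, which were Zdhhc2, Zdhhc22 and Zdhhc23). Of the reported targets, 3 were lower with centred arrays (Mapk10, Ctnnd2 and Cacnb2), 2 with sample weights, whose fit stopped before full convergence, 0 at 2-fold, and 1 to 2 with each sample left out. With the acinar covariate the 1 target called was Mapk10 and not Cacnb2. The cause of these shifts was not tested. No called result changed its direction, while differences that were not called, such as those of Zdhhc5, Zdhhc8 and Zdhhc9, changed sign in some settings.

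The samples share only the letters a, b and c across genotypes, and the deviations of samples with the same letter correlated at 0.04, -0.16 and 0.11. With the letter as a replicate block, 360 genes were lower and 430 higher, the difference of Zdhhc14 was -1.90 with an SE of 0.31, and Zdhhc22 and Cacnb2 were still called. Dim probes such as that of Zdhhc19 limit what can be read from small differences.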
